A study of Saccharomyces cerevisiae with 3 samples.

Results

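The data are the hybridization of diploid Δ*sum1* cells taken after 6 hours in sporulation medium (SPM), 1 of the 3 arrays of the series. The other 2 arrays hold the same culture 20 and 40 minutes after a transfer to rich glucose medium (YPD), and were used here only to judge the reference. All 6218 genes on the array were taken, each printed in 2 adjacent spots, and they were described by how much higher or lower their signal was in the sporulating Δ*sum1* culture than in the reference. The study describes its sporulating cultures as incompletely synchronized. The Δ*sum1* strain is JPY214, a diploid of the SK1 background, which sporulates rapidly. It was grown to saturation in YPD, grown overnight in YPA, which is rich and supplies acetate as carbon source, washed, and resuspended in SPM, which has acetate and raffinose but no nitrogen source. The reference is a diploid SK1 strain with an intact *SUM1*, NKY1551, growing in YPA. The 2 cultures therefore differed in strain, in medium and in the 6 hours of time, and what each contributed cannot be told apart. No 6-hour array of wild-type cells was analysed here, so no ratio below can be assigned to the *SUM1* deletion alone.

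When starved for nitrogen and a fermentable carbon source, diploid yeast cells leave the mitotic cycle, replicate their DNA, recombine their homologous chromosomes, pass through 2 nuclear divisions and wrap each product in a spore wall. The transcription factor Ime1 starts the program and induces the early genes of replication and recombination. Ndt80 then induces the mid-sporulation genes of the divisions and of spore formation. Before that point many mid-sporulation genes are held off by Sum1, a repressor that binds an element overlapping the site of Ndt80 and recruits the histone deacetylase Hst1 through Rfm1. In the cells described here this repressor gene was deleted.

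Cy5 carried the Δ*sum1* sample and Cy3 the wild-type reference, according to the channel labels, the scanner headers and the study's own array description, whereas the labeling protocol deposited with the sample names the dyes in the opposite order. Positive log2 ratios are therefore read as more signal from Δ*sum1* cells. The median background-subtracted signal of the gene spots was 4280 in Cy5 and 3939 in Cy3. Signals below a floor of 656 in Cy5 and 690 in Cy3 were raised to it, which touched 5.09% of the gene spots in Cy5 and 5.13% in Cy3. Where both spots of a gene were below the floor in 1 channel, its ratio is called a bound, and a fold against such a Cy3 signal is written as "at least". Such a bound holds for the floors used here and is smaller in size with a higher floor. Spots printed with buffer alone were not dark, with medians of 749 in Cy5 and 1140 in Cy3 and means of 1650 and 2232, so very large ratios depend on the floor. Errors given as ± are the SD between the 2 spots of a gene. They are technical, with a pooled value of 0.15 on the log2 scale. The reference RNA was the same on all 3 arrays, and its log2 signal per gene differed between the 6-hour slide and the other 2 slides with an SD of 0.36 and 0.39. By that measure 71 genes (1.14%) and 187 genes (3.01%) lay more than 2-fold apart with no difference in RNA. With 1 array there is no replicate check, no test was made and the differences below carry no p-value.

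At 6 hours in SPM, 1338 genes (21.5% of 6218) were at least 2-fold higher in Δ*sum1* cells than in the wild-type reference, and 1108 genes (17.8%) were at least 2-fold lower. In what follows, higher and lower without further qualification mean these limits. The shares of 21.5% and 17.8% are the background for the counts of the lists below, and several lists lie near them. The remaining 3772 genes (60.7%) lay in between. The 2 sides differed in shape. At 4-fold there were 558 higher and 309 lower genes, at 16-fold 132 and 4, and at 32-fold 69 and 1. With the floor used here, the large differences were thus nearly all increases. With the mean of the buffer spots as the floor no gene reached 32-fold, since log2 ratios ran from -4.34 to 4.87. With the floor used here, the median of the higher genes was 1.82 on the log2 scale and that of the lower genes -1.55. In 1267 higher and 1020 lower genes each of the 2 spots passed the limit by itself. At the upper limit, *UME6*, *RPB9* and *MSS4* lay just inside with 1.00, and *HAP3* lay just outside with a value that also rounds to 1.00.

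**Figure D1:**
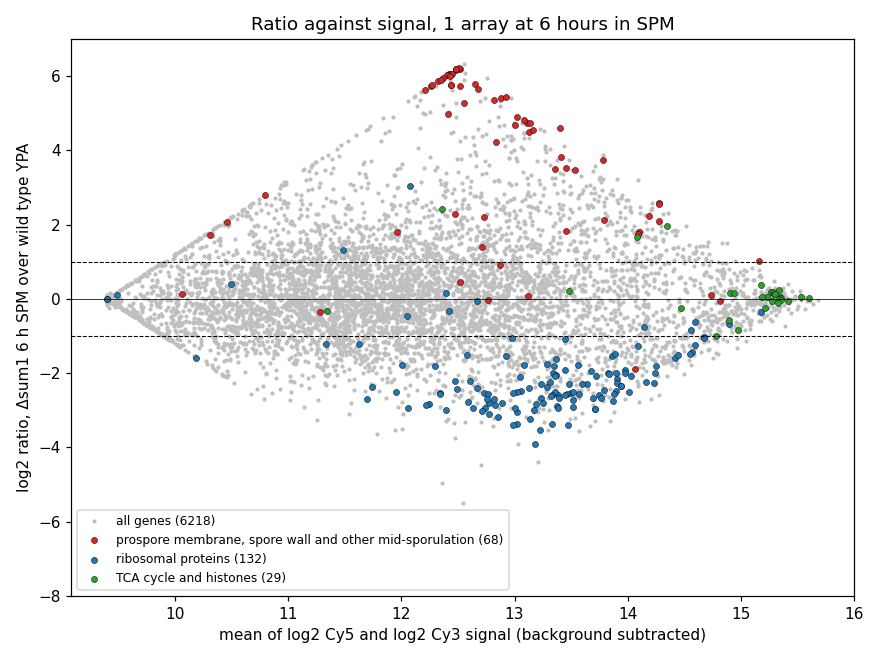
Log2 ratio of Δ*sum1* cells at 6 hours in SPM over wild-type cells in YPA (vertical axis) against the mean log2 signal of the 2 channels (horizontal axis), 1 point per gene, with dashed lines at 2-fold. Genes of the prospore membrane, spore wall and other mid-sporulation lists (red) fill the upper edge, ribosomal protein genes (blue) lie mostly below the lower line, and genes of the TCA cycle and histones (green) gather at the bright end, where the spread of ratios narrows.

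The bright end of the scale limits what the array could show. The highest intensity was 55249 in Cy5 and 58740 in Cy3, and 167 genes exceeded 30000 in both channels in at least 1 spot each, which is what bright in both channels means below. Such a gene had little room to reach 2-fold, and their ratios ran from -0.72 to 0.76 with a median of 0.00. At the other end, 645 of the 1338 higher genes had a mean Cy3 signal under the mean of the buffer spots, against 1905 of all 6218 genes. The study's array description names that mean as the floor, while the deposited ratios carry the lower floors used here. Many results are therefore also given with the mean of the buffer spots, called the buffer-mean floor. Where only 1 value or count is printed, it can also differ with that floor. With the buffer-mean floor, 1162 of the 1338 remained higher and 744 of the 1108 remained lower. The highest ratio of all genes became 4.87 in place of 6.32. This floor also moved the array median, which added 0.22 to the log2 ratio of a gene well above background. For 225 of the higher genes the ratio was smaller by more than 1 on the log2 scale with this floor, and the highest ratio of a gene that left the higher side was 2.41.

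*SUM1* itself was the first check of the labels. Its spots read 2056 and 1485 in Δ*sum1* cells, against 7052 and 5478 in the wild-type reference, a log2 ratio of -1.76 ± 0.07 or 3.38-fold lower. The signal in the deletion strain was above the floor but close to the Cy5 mean of the buffer spots, 1650, and 404 genes had a lower ratio, so on this array *SUM1* was low but not the gene most reduced. Its partners went the other way. *RFM1*, which tethers Hst1 to Sum1, gave 18499 and 15598 in Δ*sum1* cells, against 1601 and 1433 in the reference, and was 11.8-fold higher (3.56 ± 0.06). *HST1*, the NAD-dependent deacetylase of the complex, gave 35987 and 34520 in Δ*sum1* cells, against 4503 and 4607, and was 8.14-fold higher (3.02 ± 0.07). In both cases the 2 groups of spots were far apart.

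Of the 25 regulators of meiosis that were listed, 12 were higher and 2 lower, with a median of 0.77 beside 0 for all genes. *NDT80*, the activator of the mid-sporulation genes, had signals of 36968 and 36272 in Δ*sum1* cells and 618 and 671, both under the floor, in the wild-type reference. Its log2 ratio of 5.80 makes it at least 55.8-fold higher with the floor used here, and it was at 4.33 with the buffer-mean floor. The SD of 0.02 between its spots reflects Cy5 alone, since both Cy3 spots were set to the floor. *SPS1* (6.09) and *SMK1* (6.08), kinases of the late steps of spore formation, were also among the highest of the list. *IME2*, a meiosis-specific kinase that acts with Ime1 and is known to phosphorylate Sum1, gave 38212 and 37499 in Δ*sum1* cells and 1537 and 1561 in the reference (4.68 ± 0.03, 25.7-fold). *AMA1*, a meiotic activator of the anaphase-promoting complex, was at 2.80 and *SLZ1*, a component of the mRNA methylation complex, at 4.46. The methyltransferase *IME4* (1.40) and its partner *MUM2* (1.31) were also higher, as were the kinase *MCK1* (1.20) and, at the limit, *UME6* (1.00), which encodes the DNA-binding protein that recruits Ime1 to early genes.

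*IME1* stood apart from the genes it controls. Its signals were 42846 and 40580 in Δ*sum1* cells and 39488 and 36964 in the wild-type reference, a ratio of 0.20 ± 0.01. Both channels were near the top of the scale, so the master regulator was as bright in the acetate culture as in the sporulating one, and a difference of 2-fold between them could hardly have been recorded. The corepressor gene *CYC8*, also called *SSN6*, lay at 0.77, the repressor *RME1* at 0.67, the RNA-binding protein gene *RIM4* at 0.52, *RIM11* at 0.44 and *UME1* at 0.34. Values near 0 were found for *RIM101* (-0.03), *POG1* (-0.11) and *RPD3* (-0.16). On the low side were *SSN8* (-0.52), *RIM15* (-0.96), a kinase that promotes *IME1* expression, and *SIN3* (-1.41). The 2 lower genes of the list were *SIN3*, the scaffold of the Rpd3 deacetylase, and *SUM1*.

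**Figure D2:**
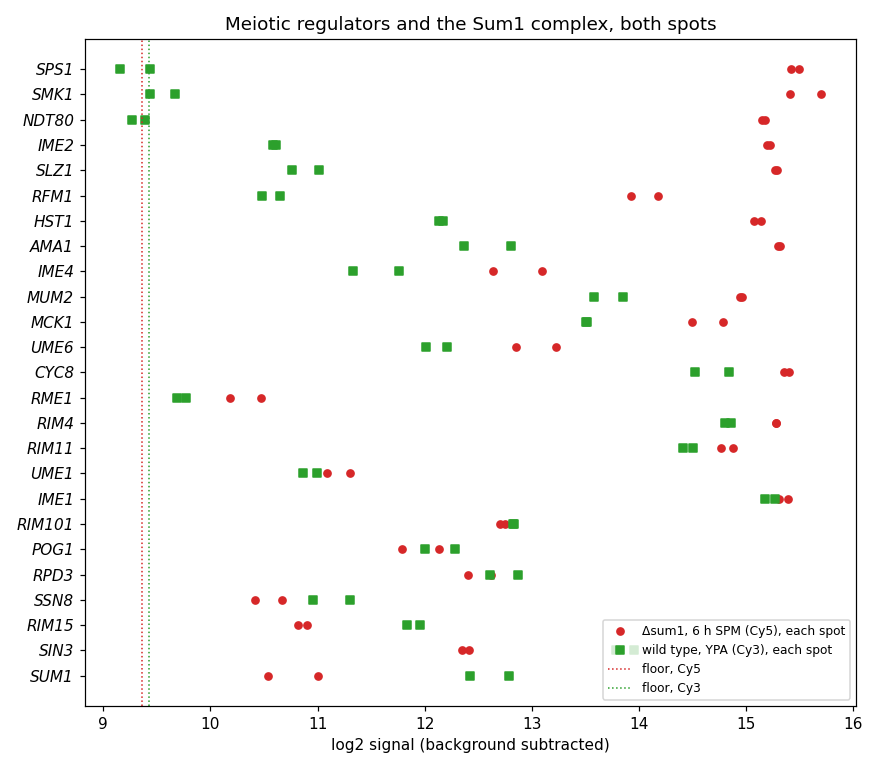
Log2 of the background-subtracted signal of each spot for the 25 regulators, with the Δ*sum1* sample at 6 hours in SPM as red circles and the wild-type reference in YPA as green squares, ordered by ratio. Dotted lines mark the floors. The spots of *SPS1*, *SMK1* and *NDT80* lie at the top of the Cy5 scale and at the floor of Cy3, those of *IME1* overlap at the bright end, and *SIN3* and *SUM1* have red circles left of the green squares.

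In the list of the synaptonemal complex and chromosome axis, 17 of 18 genes were higher and 1 was lower, with a median of 3.31. With the buffer-mean floor 15 were higher and 1 was lower, with a median of 2.58. *HOP1*, a protein of the axis, gave 28417 and 28578 in Δ*sum1* cells and 695 and 784 in the reference (5.34 ± 0.12). *ECM11*, which is needed for the central element of the complex, was at least 58.3-fold higher, and *NDJ1*, which attaches telomeres to the nuclear envelope, had a bound of 5.56. The exception was *MSC3* at -1.34. Of 10 genes for the formation of double-strand breaks, 6 were higher and none was lower, with a median of 1.03. *MEI4* (3.61, a bound), *SPO11* (3.55), whose product cuts the DNA, and *REC104* (3.07, a bound) led, and the subunits of the general repair nuclease *MRE11* (0.40) and *RAD50* (-0.75) stayed within 2-fold. *REC102* carried no ratio, since all its spots were under the floor. *SPO11* was not bright even in the sporulating culture, with 8003 and 8080 in Δ*sum1* cells against 753 and 556 in the reference.

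Of 21 recombination genes measured, 15 were higher and 1 was lower, with a median of 1.31, and 12 were higher and none lower with the buffer-mean floor. *DMC1*, the meiotic strand-exchange protein, gave 35730 and 35240 in Δ*sum1* cells and 1836 and 1768 in the wild-type reference (4.37 ± 0.02). *MEI5*, which loads Dmc1, had a bound of 5.88, and the nuclease gene *EXO1* was at 4.19. *TOP3*, a topoisomerase of mitotic and meiotic cells, lay at 0.33 and *RAD55* at -0.69.

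Cohesin and the monopolin complex, which holds sister kinetochores together in the first division, gave 8 higher and 1 lower of 14 genes. The meiosis-specific *MAM1* (at least 50.4-fold) and *SPO13* (at least 43.8-fold) were brightest relative to the reference, and *PDS1*, the securin, gave 41399 and 40596 in Δ*sum1* cells and 1719 and 1545 in the reference (4.73 ± 0.09). The cohesin subunit that meiotic cells replace, *MCD1*, was at -0.79, the separase *ESP1* at -0.44 and the cohesin-associated *PDS5* at -1.67. The meiotic subunit that takes the place of Mcd1, *REC8*, was 8.01-fold higher.

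The cell-cycle machinery of the 2 nuclear divisions was also prominent. Of 11 genes for division cyclins and their kinase, 6 were higher and 1 was lower (7 and 1 with the buffer-mean floor). B-type cyclins were high with *CLB6* at 4.65 (a bound), *CLB1* at 4.57, *CLB5* at 4.32, *CLB4* at 4.30 and *CLB3* at 3.14, and the exception was *CLB2*, the main mitotic cyclin, at 0.95 with 6024 and 5926 in Δ*sum1* cells against 3239 and 3253 in the reference. *CLB1*, by contrast, gave 48685 and 42304 in Δ*sum1* cells against 2036 and 1978. *SIC1*, the inhibitor of B-type cyclin kinases, was lower at -1.40, the subunit *CKS1* was at -0.27 and the kinase *SWE1* at 0.03. In the list of the anaphase-promoting complex, polo kinase and mitotic exit 20 of 28 genes were higher and none was lower, with a median of 2.58. Subunits of the complex led, with *CDC26* at 5.04, *APC5* at 4.66 and *CDC27* at 4.25. Its activator *CDC20* was at 4.01 and the polo kinase *CDC5* at 3.73. The lowest values were those of the mitotic exit genes *CDC15* (0.20), *NUD1* (-0.31) and *NET1* (-0.37), and *NET1* overlaps another gene by 355 bases and its probe cannot separate them.

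Spindle genes gave 25 higher and none lower of 34, with a median of 1.96. The highest were *SPO21* (5.95) and *SPO74* (5.91), both bounds and both parts of the meiotic outer plaque of the spindle pole body, from which the spore membrane grows, followed by *CNM67* (4.44), an outer plaque protein of mitotic cells as well. *MPC54*, a further plaque component, was bright already in the reference, with 40216 and 40454 in Δ*sum1* cells against 7034 and 6428 (2.66). *KIP2*, a kinesin of cytoplasmic microtubules, was at -0.18 and *BIR1* at -0.01. *BUB1* was under both floors and carried no ratio.

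Genes of spore formation were among the largest increases of the array. In the list of the prospore membrane, which encloses each nucleus, and of the septins, 24 of 29 genes were higher and none was lower, with a median of 3.49. *SPS22* gave 50409 and 49352 in Δ*sum1* cells and 638 and 737 in the reference (6.20 ± 0.09), *SPS2* was at 6.18 (a bound) and *SMA1* at 6.16. The sporulation-specific septins *SPR3* (6.03, a bound) and *SPR28* (4.88) were far above the septins of dividing cells, of which *CDC10* (2.57) and *CDC3* (2.57) were higher and *SHS1* (0.92), *CDC11* (0.47) and *CDC12* (-0.03) were not. *VPS13*, a lipid transfer protein needed for the prospore membrane, was at -0.34. The aquaporin gene *AQY1* was under both floors.

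Of 28 spore wall genes 24 were higher and none was lower, with a median of 4.78, and 20 of the 28 exceeded an intensity of 30000 in Cy5 although 20 had a mean Cy3 signal under the mean of the buffer spots. *GAS4*, a glucan-modifying enzyme, was at least 74.6-fold higher with 51568 and 46500 in Δ*sum1* cells against 558 and 469 in the reference. *LOH1* (6.18) and *LDS2* (6.06) were bounds too. The chitin deacetylases that make the chitosan layer, *CDA1* (5.42) and *CDA2* (5.35), *SPS18* (6.05), *SSP2* (5.79) and *IRC18* (5.66) had both channels above the floor. With the buffer-mean floor they lay between 4.61 (*SPS18*) and 4.71 (*CDA1*). *DIT1*, which makes the dityrosine of the outermost layer, gave 2288 and 2338 in Δ*sum1* cells against 785 and 503 in the reference (1.72), and with the buffer-mean floor it was at 0.35. *DIT2*, the second enzyme of that step, had a bound of 2.80. *SPS100*, a marker of late sporulation, was at 0.13 with 1145 and 1027 in Δ*sum1* cells and 997 and 1096 in the reference. The values of *DIT2*, *CDC20*, *CDC5*, *CLB2* to *CLB4*, *MPC54*, *REC8* and the septins other than *CDC12* were looked up after the lists had been ranked.

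Other mid-sporulation genes had a median of 5.27, with 10 of 11 higher and 1 lower, and of 4.45 with the buffer-mean floor, where spore wall genes had 4.49. They included the glucoamylase *SGA1*, which breaks down glycogen, with 38602 and 40811 in Δ*sum1* cells and 783 and 771 in the reference (5.75 ± 0.07), the hexose transporter family member *HXT10* (5.75), the RNA-binding protein *PES4* (5.74), *PFS1* (a bound of 5.75) and the putative chitinase *CTS2* (5.43). *HXT14* (3.46) and *SPS19* (1.75), a peroxisomal reductase, were lower in rank. *FMP45*, a membrane protein of the cell cortex, was the exception at -1.90, with 8961 and 8314 in Δ*sum1* cells against 35039 and 32678. Over all genes the largest bounds belonged to *HIM1* (79.7-fold), *GAS4*, *LOH1*, *SPS2* and *SPR2* (71.5-fold). With the buffer-mean floor the log2 ratio of *HIM1* was 4.85 and that of *GAS4* 4.75.

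**Figure D3:**
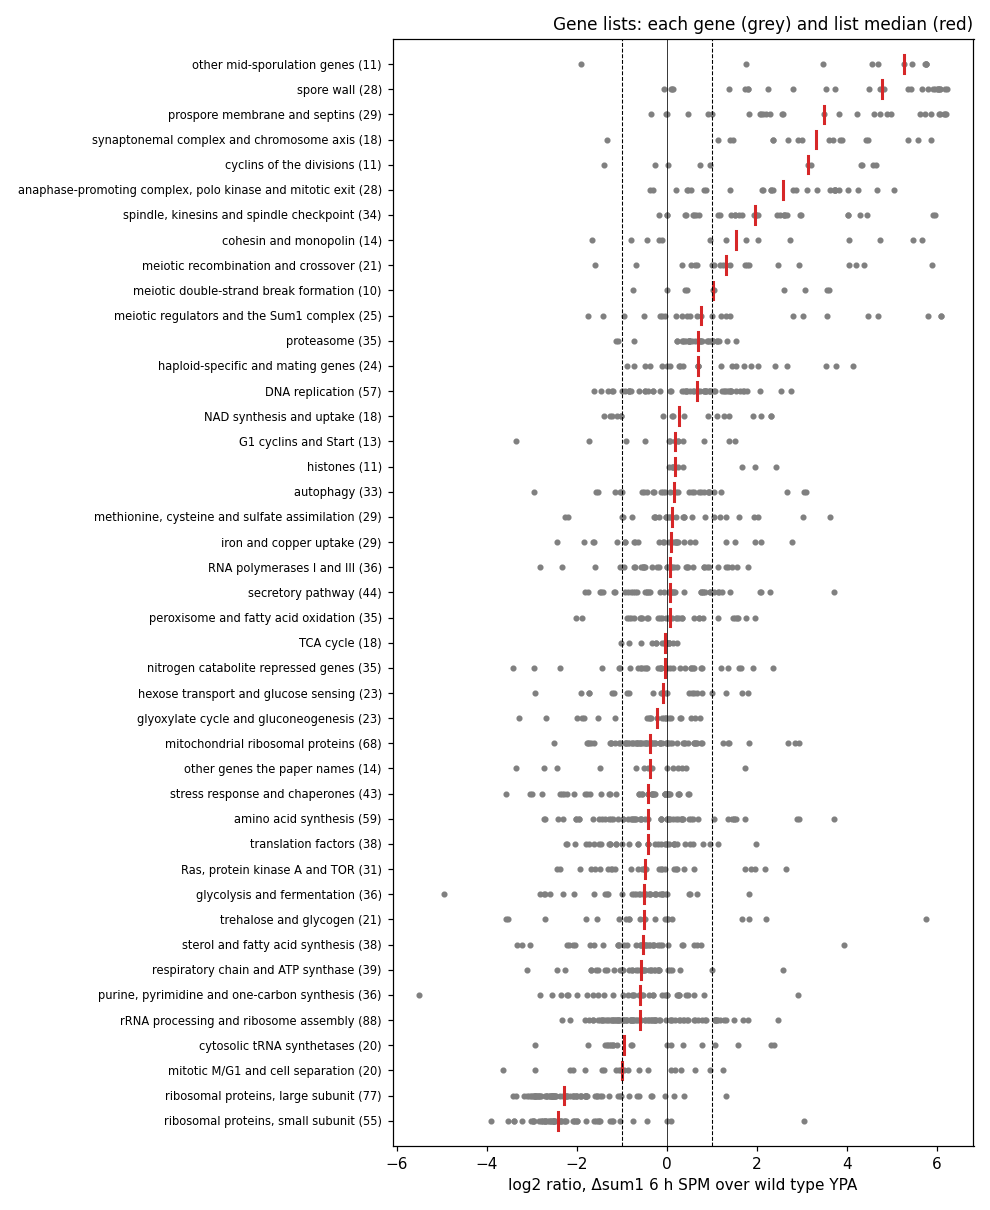
Log2 ratio of Δ*sum1* cells at 6 hours in SPM over wild-type cells in YPA for every measured gene of the 43 lists (grey), with list medians in red, dashed lines at 2-fold and the number of genes in parentheses. Lists of sporulation lie at the top with medians up to 5.27, and the ribosomal protein lists lie at the bottom with medians of -2.29 and -2.41.

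Genes that mitotic cells share with meiosis, or use in its place, were more mixed. Of 57 DNA replication genes 18 were higher and 5 lower, with a median of 0.66 (0.32 with the buffer-mean floor, and 19 and 3). *PSF3* (2.75), a subunit of the GINS complex, the clamp loader subunit *RFC1* (2.53) and the kinase *CDC7* (2.06), which is required for entry into recombination as well, were highest. Ribonucleotide reductase subunits *RNR4* (-1.62) and *RNR2* (-1.47) and the polymerase subunit *POL12* (-1.31) were lowest. Core histone genes lay between 0.04 (*HHT1*) and 0.36 (*HHF2*), but 8 of the 11 histone genes were bright in both channels. The dimmer variants were higher, with the centromeric histone *CSE4* at 2.43, the linker histone *HHO1* at 1.97 and *HTZ1* at 1.67.

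Genes of the mitotic G1 phase had a median of 0.18 with 2 higher and 2 lower of 13 (3 and 1 with the buffer-mean floor). The lowest ratio of this list was that of *CLN3*, the G1 cyclin that links nutrients to the start of the cycle, with 1582 and 1877 in Δ*sum1* cells and 17052 and 19787 in the wild-type reference (-3.34 ± 0.02, 10.1-fold lower). *CLN1* was lower too (-1.73), but at -0.67 with the buffer-mean floor. The 2 higher genes were *SWI4* (1.52), part of the factor that activates G1 genes, and *WHI5* (1.39), its repressor. Of 20 genes that separate mother and daughter cells 10 were lower and 1 was higher, with a median of -0.99. With the buffer-mean floor 6 were lower and 2 higher, with a median of -0.36. *CTS1*, the chitinase of cell separation, was at -3.63 with unequal spots of 1571 and 314 in Δ*sum1* cells, the second of them under the floor, against 13289 and 13130 in the reference. *DSE1* (-2.92) and the daughter-specific repressor *ASH1* (-2.14) were also lower, and *EGT2* (1.24) was higher.

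Ribosomal protein genes gave more lower genes than any other of the 43 lists. Of 77 genes of the large subunit 68 were lower and 1 was higher, with a median of -2.29, and of 55 genes of the small subunit 50 were lower and 1 was higher, with a median of -2.41. The background for all genes was 17.8% lower. *RPS20* had the lowest value of this group, with 2580 and 2125 in Δ*sum1* cells and 36865 and 36593 in the reference (-3.90 ± 0.19, 14.9-fold lower), followed by *RPS12* (-3.53), *RPL7B* (-3.41) and *RPS3* (-3.40). Most ribosomal proteins of yeast have 2 nearly identical genes. Of 55 such pairs both members were lower in 43, 1 member in 10 and neither in 2, and the median difference between members was 0.37. In 13 pairs the members differed by at least 2-fold. *RPS21A* was 8.24-fold higher, with 13605 and 10643 in Δ*sum1* cells against 1608 and 1467 in the reference, whereas *RPS21B* was 5.97-fold lower, with 2194 and 1953 against 13914 and 12114. *RPL8A* (-3.03) and *RPL8B* (0.16), *RPS19B* (-3.01) and *RPS19A* (0.10), and *RPL31A* (-2.54) and *RPL31B* (0.39) were split as well. *RPL15A*, the other higher gene, was at 1.31 and *RPL15B* at -1.05. The probes are PCR products that can bind the mRNA of a close copy, so values within a pair are uncertain, and these pairs were picked after their values were seen.

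**Figure D4:**
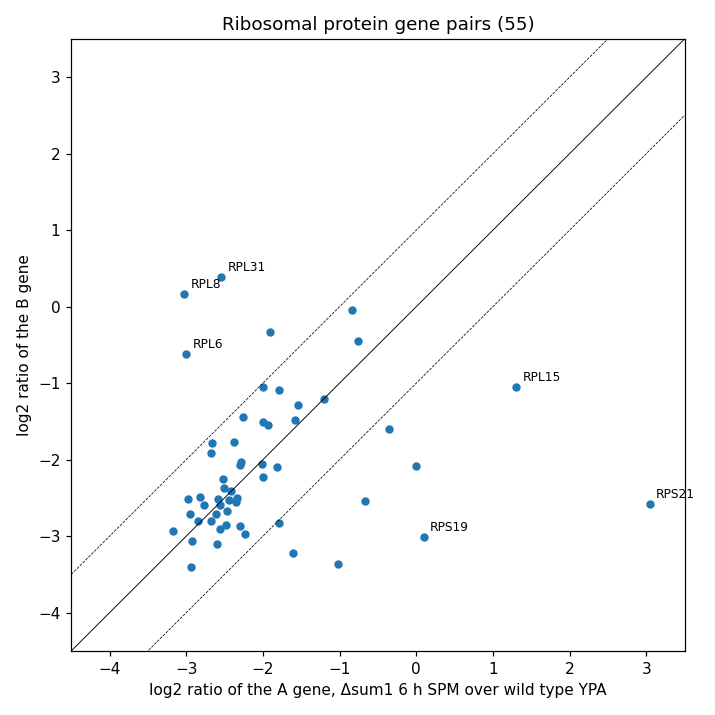
Log2 ratio (Δ*sum1* cells at 6 hours in SPM over wild-type cells in YPA) of the B gene against that of the A gene for 55 pairs of ribosomal protein genes. The solid line marks equal values and the dashed lines a 2-fold difference between members. The 6 pairs with the largest differences are named, and in 43 of the 55 pairs both members lie at or below -1.

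Other parts of the translation machinery were reduced less or not at all. For RNA polymerases I and III and mitochondrial ribosomal proteins, the share of lower genes did not exceed the 17.8% of all genes. Of 88 genes for rRNA processing and ribosome assembly 26 were lower and 12 higher, with a median of -0.60. *NOP58* (-2.33) and *CBF5* (-2.16), core proteins of the small nucleolar particles, and the helicase *MAK5* (-1.82) were lowest, and *REI1* (2.47), *NOP12* (1.80) and *UTP6* (1.68) highest, though *REI1* overlaps another gene by 453 bases and *UTP6* was at 0.30 with the buffer-mean floor. The balance of this list changed with the floor. With the buffer-mean floor 8 were lower and 9 higher, with a median of -0.14. RNA polymerases I and III had a median of 0.08, with 6 higher and 4 lower of 36. Large subunits of polymerase I, *RPA135* (-2.33), and polymerase III, *RPO31* (-1.59), were lower, as was *RPC37* (-2.81), and *RRN11* (1.81), *RPC40* (1.56) and *RRN9* (1.44) were higher. With the buffer-mean floor *RRN11* was at 0.71 and *RRN9* at 0.87, and the list had 4 higher and 3 lower genes and a median of -0.08. Among 38 translation factors 13 were lower and 2 higher (11 and 4 with the buffer-mean floor). Subunits of initiation factor 3, *PRT1* (-2.23) and *RPG1* (-2.22), and the elongation factor gene *EFT1* (-2.03) were lowest, and the start codon factor *SUI1* (1.98) and *SUI2* (1.12) were the 2 higher genes. Of 20 cytosolic tRNA synthetases 10 were lower and 4 higher (7 and 4 with the buffer-mean floor). The subunits of the phenylalanine enzyme parted, with *FRS2* at 1.59 and *FRS1*, looked up for this reason, at -1.20. *GUS1* (-2.93) and *GRS1* (-1.76) were lowest, and *TYS1* (2.38) and *YHR020W* (2.31) highest. Mitochondrial ribosomal protein genes had 12 lower and 7 higher of 68 and a median of -0.36 (7 and 8 with the buffer-mean floor), with *MRPS17* (2.93), *MRPL37* (2.84) and *MRPL27* (2.68) at the top and *MRPL6* (-2.52) at the bottom.

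Both cultures used acetate. None of 18 TCA cycle genes was higher and 1 was lower, *SDH1* at -1.01 (-0.79 with the buffer-mean floor), with a median of -0.04, but 12 of the 18 were bright in both channels. *LSC1* was highest at 0.22. The list of the glyoxylate cycle and gluconeogenesis had no higher and 7 lower genes of 23, and 9 of the 23 were bright in both channels. *ICL1*, the isocitrate lyase, was at -0.07, with 40429 and 42810 in Δ*sum1* cells and 43910 and 47850 in the reference. With both channels that bright, a difference of 2-fold could hardly have been recorded for *ICL1*. *FBP1*, fructose-1,6-bisphosphatase, was 9.69-fold lower, with 4651 and 4565 in Δ*sum1* cells against 47958 and 46013. The acetyl-CoA synthetases differed from each other, with *ACS2* at -2.68 and *ACS1* at -0.02. The regulators *CAT8* (0.73) and *SIP4* (0.53) lay within 2-fold. In the respiratory chain and ATP synthase 11 of 39 genes were lower and 1 was higher. The higher gene was *COX5B* (2.58), the alternative form of a cytochrome oxidase subunit, with 17676 and 14704 in Δ*sum1* cells against 3004 and 2663, while *COX5A*, the form of aerobic growth, was at -0.57. *COX12* (-3.11) and *QCR2* (-2.44) were lowest.

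Of 36 genes of glycolysis and fermentation 11 were lower and 1 was higher, and 12 were bright in both channels. *ALD6*, the cytosolic aldehyde dehydrogenase that makes acetate, had the second lowest ratio of the array, with 938 and 905 in Δ*sum1* cells and 29008 and 30799 in the reference (-4.95 ± 0.10, 30.9-fold lower). *TPI1* (-2.82) and *PFK2* (-2.73) followed, and *FBP26*, a phosphatase of fructose-2,6-bisphosphate, was the higher gene at 1.82. Hexose transport genes had a median of -0.08 (0.07 with the buffer-mean floor), with *HXT4* (-2.93), *HXT3* (-1.91) and *HXT6* (-1.73) lower and *GRR1* (1.80), *HXT9* (1.66) and *HXT11* (1.30) higher. The transporter genes are close copies of each other.

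Of 21 storage carbohydrate genes 6 were lower and 4 higher (28.6% and 19.0%, beside 17.8% and 21.5% of all genes). With the buffer-mean floor 5 were lower and 4 higher. The phosphatase *TPS2* (-3.56) and the subunit *TSL1* (-3.52) of trehalose synthase were among the 10 lowest named genes measured in both channels, with 3526 and 3371 in Δ*sum1* cells against 44730 and 41017 in the reference for *TPS2*, and the glycogen synthase *GSY2* was at -2.70. Higher were *SGA1*, named above, and the targeting subunits of protein phosphatase 1, *PIG1* (2.21) and *PIG2* (1.83). Stress genes had no higher and 16 lower members of 43, with a median of -0.41, and 10 were bright in both channels. *SPI1* (-3.04) and *GAD1* (-2.98) were lowest after *TPS2*, and the highest were *SSA3* (0.49), *MOH1* (0.48) and *YDJ1* (0.27). *HSP12*, a small heat shock protein gene, was at -0.01 with 34306 and 35278 in Δ*sum1* cells and 37953 and 35585 in the reference. It was bright in both channels, so a difference of 2-fold could hardly have been recorded.

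Proteasome genes shared a small upward shift. In the proteasome list 32 of 35 genes had a ratio above 0, with a median of 0.69 and an interquartile range from 0.45 to 0.98. Of the 35, 8 were higher (22.9%, beside 21.5% of all genes) and 2 lower. *RPN10* (1.53), *PRE3* (1.34) and *PRE1* (1.16) were highest. The transcription factor that activates proteasome genes, *RPN4*, was lower, with 7280 and 7425 in Δ*sum1* cells and 17846 and 16048 in the reference (-1.13), as was the activator subunit *BLM10* (-1.09), while *RPN1* was at -0.72. With the buffer-mean floor *RPN4* was at -0.91 and *BLM10* at -0.86, both within 2-fold, and 13 genes of the list were higher and none was lower. Autophagy genes had a median of 0.16, with 5 higher and 7 lower of 33, and 8 higher and 3 lower with the buffer-mean floor. The kinase *ATG1* (3.08), the protease *ATG4* (3.06) and the conjugating enzyme *ATG3* (2.67) stood well above the rest, and the vacuolar carboxypeptidase *CPS1* (-2.96) and the receptor *ATG19* (-1.57) were lowest. Of 35 peroxisome genes 7 were higher (20.0%, beside 21.5% of all genes), led by *PEX19* (1.96). The 2 lower ones were the acyl-CoA synthetase *FAA2* (-2.02), which overlaps another gene by 160 bases, and the thioesterase *TES1* (-1.89).

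Nitrogen genes had no common direction. SPM holds no nitrogen source, yet the genes under nitrogen catabolite repression had a median of -0.04 with 6 higher and 6 lower of 35, or 3 and 4 with the buffer-mean floor. The allantoin pathway genes *DAL4* (2.35), *DAL5* (1.92) and *DAL1* (1.64, a bound) were highest, and *DAL4* and *DAL1* were within 2-fold with the buffer-mean floor. The proline permease *PUT4* gave 2204 and 2083 in Δ*sum1* cells against 25211 and 22871 in the reference (-3.41). The serine deaminase *CHA1*, which is outside the list, was 22.2-fold lower, with 1366 and 1388 in Δ*sum1* cells against 33774 and 30474. In amino acid synthesis 16 of 59 genes were lower and 10 higher (13 and 9 with the buffer-mean floor). *SER33* (3.71), the first enzyme of serine synthesis, *LEU1* (2.93) and *BAT1* (2.90) were highest, and *SHM2* (-2.72) and *SER2* (-2.70), the last enzyme of serine synthesis, were lowest. Sulfur genes gave 8 higher and 2 lower of 29, or 5 and 2 with the buffer-mean floor, with *MET22* (3.63), *MUP3* (3.02) and *MET31* (2.02) at the top and *MET17* (-2.25) and *CYS3* (-2.20) at the bottom.

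In nucleotide synthesis 12 of 36 genes were lower and 1 was higher. *URA1*, the dihydroorotate dehydrogenase, had the lowest ratio of all 6218 genes, with 990 and 750 in Δ*sum1* cells and 44309 and 38105 in the reference (-5.50 ± 0.13, 45.3-fold lower). *URA2* (-2.81), which starts the same pathway, and *ADE17* (-2.55) were next, whereas the salvage enzyme *FUR1* was the higher gene at 2.91. Of 18 NAD genes 7 were higher and 6 lower (7 and 3 with the buffer-mean floor), with nucleoside salvage at the top, *NRK1* (2.32) and *PNP1* (2.30), together with *BNA1* (2.08), and with *BNA7* (-1.39), *NMA1* (-1.27) and *QNS1* (-1.23) at the bottom. For sterols and fatty acids 13 of 38 genes were lower and 1 was higher (10 and 1 with the buffer-mean floor). The farnesyl diphosphate synthase *ERG20* (-3.32), *ERG3* (-3.22) and the reductase *HMG1* (-3.04) were lowest. The higher gene was *ELO3* (3.94), which lengthens fatty acids for sphingolipids, with 25743 and 23462 in Δ*sum1* cells against 1744 and 1622 in the reference. Iron and copper genes had 5 higher and 5 lower of 29 (17.2% each, beside 21.5% and 17.8% of all genes), among them *SMF3* (2.77) and *FET3* (-2.43).

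In the Ras, protein kinase A and TOR pathways 10 of 31 genes were lower and 5 higher, with a median of -0.49. With the buffer-mean floor 8 were lower and 5 higher, with a median of -0.27. *TOR1* gave 4948 and 5332 in Δ*sum1* cells against 29721 and 29201 in the reference (-2.45), *RAS2* was at -2.37 and the adenylate cyclase *CYR1* at -1.92. The phosphodiesterase *PDE1*, which breaks down cyclic AMP, was higher, with 21277 and 20584 in Δ*sum1* cells against 3856 and 3213 (2.64), as were *TAP42* (2.19) and *RGS2* (1.95). The secretory pathway gave 9 higher and 7 lower of 44 (20.5% and 15.9%, near the shares of all genes), and 13 and 4 with the buffer-mean floor. *SEC12* (3.71), *SEC14* (2.29), a phosphatidylinositol transfer protein, and the syntaxin *SSO1* (2.10), which acts at the prospore membrane, were highest. The COPII coat genes *SEC24* (-1.81) and *SEC23* (-1.76) were lowest. Of other genes discussed in the study, *FLO11*, the adhesin of pseudohyphal growth, was at -2.73, and *MSH1* (0.43) and *HAM1* (0.33) lay within 2-fold.

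Haploid-specific and mating genes served as markers of another cell type, since they are repressed in diploids. Of 24 measured, 11 were higher and none was lower, with a median of 0.69, beside 21.5% higher among all genes. These genes were dim. Mean Cy3 was under the mean of the buffer spots in 21 of the 24, and none exceeded an intensity of 30000 in Cy5. *STE18*, the gamma subunit of the pheromone-responsive G protein, gave 28315 and 24065 in Δ*sum1* cells and 1523 and 1585 in the reference (4.14 ± 0.21). *STE4*, its beta subunit, gave 13737 and 13185 against 1291 and 1156 (3.53), and *NEJ1*, a haploid regulator of end joining, was at 3.76. The alpha subunit *GPA1* was only at 0.68, the pheromone receptor genes *STE3* and *STE2* were at 2.39 and 0.26, and the pheromone exporter *STE6* was at -0.73. *MF(ALPHA)2* (-0.88) was a bound. With the buffer-mean floor 8 genes of the list were higher and none was lower, and its median was 0.18. The part of haploid cells in the culture was not tested.

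Genes that have only a systematic name were higher about as often as all genes. Of 525 such genes, 112 (21.3%) were higher and 93 (17.7%) lower. *YGL230C* had 52905 and 53255 in Δ*sum1* cells against 1000 and 812 in the reference (61.9-fold), and *YDL186W* (59.3-fold) and *YOL024W* (at least 58.2-fold) were close to it. These were picked for their values, as were *GAL7*, the galactose enzyme gene, at 5.83, with 39097 and 36488 in Δ*sum1* cells against 706 and 361, and its neighbors of the same pathway, *GAL10* at 0.66 (a bound) and *GAL1* at 0.74. Of the 555 array identifiers with no counterpart in the present annotation, 79 (14.2%) were higher and 115 (20.7%) lower.

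Higher genes were found on all 16 chromosomes. The median ratio per chromosome lay between -0.19 on chromosome I, where 12 of 87 genes were higher and 22 lower, and 0.18 on chromosome V. The share of higher genes was between 13.8% on chromosome I and 26.4% on chromosome IV. Some higher genes were adjacent. The 2 longest runs had 7 genes each, on chromosome IV from *URH1* through *DIT2* and *DIT1* to *TRS120*, and on chromosome XV from *SGO1*, the protector of centromeric cohesion, to *ATX2*. With the buffer-mean floor the run on chromosome IV is broken at *DIT1*, which was then at 0.35. Runs of 5 genes on chromosome VIII held *SPO12* and *SPO16* side by side in the first and *SSP1* beside *PFS1* in the second.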

How the data were processed

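Total RNA was labeled by the indirect amino-allyl method and hybridized to 2-color arrays of PCR products. The authors scanned the slides with ScanArray 4000 and quantified them with QuantArray 3, and the deposited scanner files give an intensity and a background per spot and channel. A deposited table holds the authors' log2 ratios after background subtraction, a floor, median subtraction, averaging of duplicate spots and omission of bad spots, partly by visual inspection, which was not repeated here. The floors were recovered from that table, from 25 of its genes for Cy5 and 61 for Cy3. They are lower than the mean of the buffer spots that the authors' array description states. Of the ratios recomputed for 5496 genes of the table, 97.9% lay within 0.001 of the deposited ones once a common offset was removed. The column median of the deposited table is 0.

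From each intensity the background was subtracted, values under the floor were replaced by the floor, and Cy5 was divided by Cy3. The log2 ratios of 12436 gene spots were centred on their median (-0.07), and those of the 2 spots of a gene averaged. This median is the ratio of the 2 floors, on which 128 genes under both floors lie. Python 3.11.15, R 4.3.3 and limma 3.58.1 were used, and the calculation was tested on simulated data. Genes were named through the R64 annotation, with 5663 matched. The probes are double-stranded, so antisense and overlapping genes cannot be separated. Precision is limited by the number of arrays.

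The members and the 43 lists, of which 1357 of 1376 genes were measured, were chosen with earlier results of these data known, in part from genes that the study discusses. Named by rule were all regulators, the 3 highest and 3 lowest genes of every other list, the 10 highest and 10 lowest genes measured in both channels, the 5 largest bounds on each side and genes the study discusses, 288 genes in all, not all of which are reported here. Any other gene named was chosen after its values were seen. Counts, medians and named genes were recomputed under 15 other settings. A search for motifs in promoters was planned and not run.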

Additional observations from a re-analysis of the deposited data

How the results depend on the processing

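The count of genes at least 2-fold higher in Δ*sum1* cells, 1338, was between 1246 and 1468 under 12 settings. That of lower genes, 1108, was between 744 and 1281. These 12 settings kept the 2-fold limit and did not require both spots past it, and some changed no count, as given below. The 1246 came with the deposited ratios, which cover fewer genes, so it cannot be read as a drop. Among the settings that kept all 6218 genes, the lowest count of higher genes was 1273, with loess. The lowest count of lower genes came with the mean of the buffer spots as the floor, under which 1331 genes were higher and higher genes made up 64.1% of the calls, against 54.7%. Requiring both spots past the limit left 1267 and 1020. At 1.5-fold 1925 genes were higher and 1778 lower, and at 4-fold 558 and 309, as follows from the limit itself. Of 217 named genes past 2-fold, 198 stayed past it in every setting and none changed direction. Of 12 lists with a median past 2-fold 11 kept it, and genes for double-strand break formation had 0.94 with loess. Medians near 0 changed sign in 4 lists: RNA polymerases I and III, the TCA cycle, hexose transport and nitrogen catabolite repressed genes. No spot exceeded an intensity of 60000, so that setting left out nothing. Leaving out genes under both floors or centring on genes in no list changed no count. Neither could, since genes under both floors lie at 0 and the other centre had the same value. No paired analysis was possible because there was 1 array. A motif search was not run, because no promoter sequences were used here. Buffer spots with a median of 749 in Cy5 and 1140 in Cy3 limit the dim end and intensities above 30000 the bright end.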
